A study of Mus musculus with 4 samples.

Results

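The immediate early genes Fos, Fosb, Jun, Junb, Atf3, Egr1, Nr4a1, Ier2, Dusp1 and Btg2 were followed across the duodenum and the spinal cord of WT and IP6K2-/- mice. They were taken by name, as genes transcribed within minutes of a stimulus, by a rule that sets no limit on their level or difference on these arrays. The 10 genes were taken from 32585 genes or identifiers with a probe. Each of the 10 had 1 probe on the array, identified through its RefSeq accession, and each probe was well above background on all 4 arrays, although 1 Junb spot was left out for its quality.

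Immediate early genes are switched on by signals that reach factors already present in the cell, such as SRF with its ETS partners and CREB, so that their transcription needs no new protein synthesis. Several encode transcription factors of the AP-1 group, in which a Fos protein pairs with a Jun protein, and others encode proteins that end the signal again. In the intestine they follow growth factors, luminal contents and injury, and in the spinal cord Fos is widely used as a marker of neurons that have recently been active. Removal and handling of a tissue can induce them as well.

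Spinal cord and duodenum were taken from male mice of 20 weeks, either labelled KO, which lack exon 6 of IP6K2 in the whole animal, or WT littermates. IP6K2 is a kinase that makes the inositol pyrophosphate IP7. All mice had been kept on CE-2 chow, received iVid-neo, a purified diet, during 1 week and then went without food for 48 h. The series holds 1 Cy3 array per genotype and tissue, hence 4 arrays and no replicate, so no test was possible and the differences below describe 4 arrays, not the genotypes. Values come from bulk tissue, in which fewer cells of a type and less RNA per cell cannot be told apart.

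The log2 level used below is log2 of the processed signal minus the 75th percentile of the array. That percentile was 905 and 971 on the spinal cord arrays of WT and KO, but 68.0 on WT duodenum and 323 on KO duodenum, so the WT duodenum array was by far the dimmest. The signals of enterocyte markers, summed over the list and divided by the 75th percentile, were 2149 on the WT and 1020.3 on the KO duodenum array, and at most 0.0583 on the spinal cord arrays, where 2 of the 7 markers were above background. Oligodendrocyte markers summed to 211 and 218 on the spinal cord arrays and to at most 4.57 in the duodenum, so both tissue labels hold. Where the Ip6k2 probe lies relative to exon 6 is not given. Its KO minus WT value was 1.45 for the spinal cord pair and −0.21 for the duodenum pair. Without that position these values can neither back nor contradict a label. All genotypes are therefore given as labelled. A technical SD, taken from probes spotted 10 times on each array, is printed with most KO minus WT differences where each member is described. It measures the scatter of spots and holds nothing on the scatter of mice.

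Promoter sequence was looked up for the members because they share a mode of induction. RefSeq promoters of build GRCm38.p6, each of 300 bases, most of them before the annotated start site, were matched for 8 of the 10 genes, all but Egr1 and Ier2. The motif TGACG, the core of the cAMP response element, was present on either strand in 7 of the 8 (87.5%), all but Jun, and in 20.8% of 32851 mouse promoters. The full palindrome TGACGTCA, each copy of which contains the shorter motif on both strands, was found in 2 of the 8 (25.0%), Btg2 and Dusp1, against 1.79% of all promoters. Neither the AP-1 motif TGANTCA nor the CArG box, to which SRF binds, occurred in these 8 windows, and they were present in 7.81% and 1.63% of all promoters. Sequence outside the windows was not searched, so a missing match does not mean that the gene lacks the site. Among 36 further immediate early genes with a promoter, described below by their expression, TGACG was present in 55.6%, TGACGTCA in 8.33% and the CArG box in 8.33%. The members' promoters had a median GC content of 66.2%, against 52.7% over all promoters, and the motif shares were not adjusted for it. A match describes the letters of the window and is no evidence of binding. Shown are Fosb, with the lowest KO to WT difference of the members in the duodenum, its paralog Fos, and Btg2 and Dusp1, the pair with the palindrome, with TGACG or its reverse complement in capitals.
Fosb (chr7:19309996-19310295, minus strand): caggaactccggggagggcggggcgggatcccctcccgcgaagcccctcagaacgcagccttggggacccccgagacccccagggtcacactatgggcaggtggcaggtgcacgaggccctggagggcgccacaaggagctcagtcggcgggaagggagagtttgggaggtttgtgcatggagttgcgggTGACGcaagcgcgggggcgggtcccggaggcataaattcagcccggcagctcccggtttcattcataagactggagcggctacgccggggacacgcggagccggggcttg
Fos (chr12:85473640-85473939, plus strand): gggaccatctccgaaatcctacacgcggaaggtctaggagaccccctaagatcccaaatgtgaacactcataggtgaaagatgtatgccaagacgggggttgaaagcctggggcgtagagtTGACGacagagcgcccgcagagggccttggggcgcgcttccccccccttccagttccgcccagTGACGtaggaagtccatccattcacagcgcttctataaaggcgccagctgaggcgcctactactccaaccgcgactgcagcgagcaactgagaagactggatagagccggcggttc
Btg2 (chr1:134079106-134079405, minus strand): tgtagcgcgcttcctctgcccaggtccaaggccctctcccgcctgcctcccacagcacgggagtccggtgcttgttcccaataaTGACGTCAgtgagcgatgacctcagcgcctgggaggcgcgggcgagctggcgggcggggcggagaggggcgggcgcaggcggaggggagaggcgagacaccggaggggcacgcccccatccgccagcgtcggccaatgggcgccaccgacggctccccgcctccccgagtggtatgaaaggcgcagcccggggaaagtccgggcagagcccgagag
Dusp1 (chr17:26508423-26508722, minus strand): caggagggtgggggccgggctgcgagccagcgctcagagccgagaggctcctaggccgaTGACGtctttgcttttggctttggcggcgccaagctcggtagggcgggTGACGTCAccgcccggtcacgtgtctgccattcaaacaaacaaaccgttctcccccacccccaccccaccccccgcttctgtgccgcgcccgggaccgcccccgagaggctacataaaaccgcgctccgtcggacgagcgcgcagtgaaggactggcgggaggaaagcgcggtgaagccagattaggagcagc
The match in Fosb lies at −60 from the start site and those in Fos at −129 and −66, where Fos also has a TATAAA box at −33. The palindrome begins at −166 in Btg2 and at −143 in Dusp1.

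**Figure D1:**
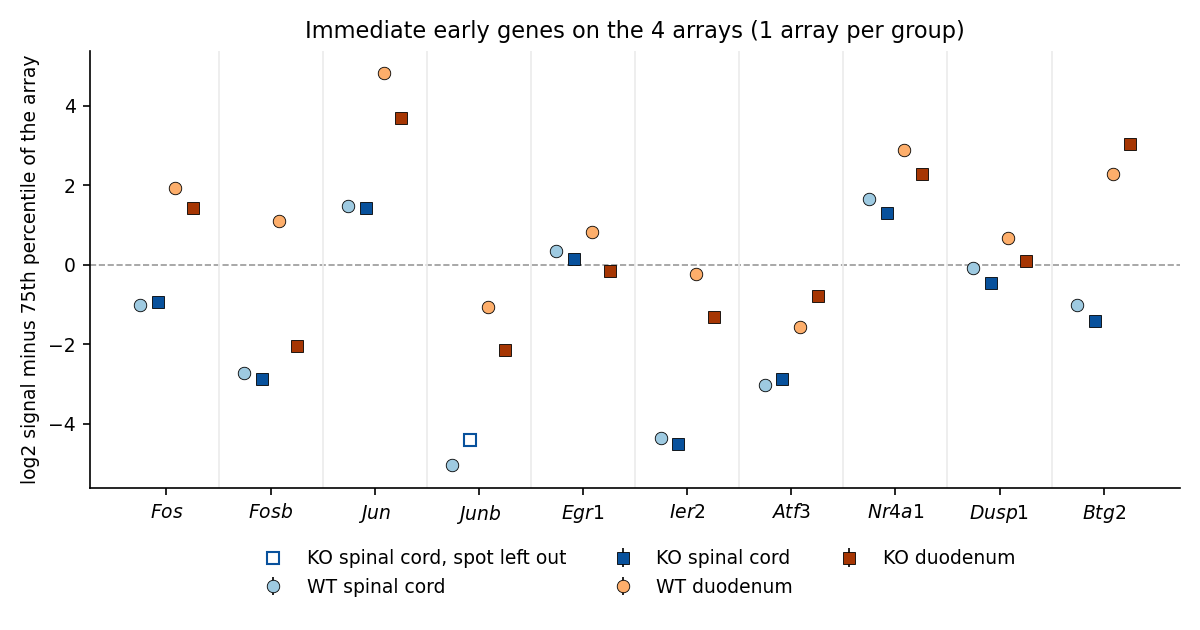
Log2 level (log2 processed signal minus the 75th percentile of the array, y axis) of the 10 members on each array, with circles for WT, squares for KO, blue for spinal cord and orange for duodenum; error bars are technical SDs and mostly lie within the symbols. Fosb reached 1.11 on the WT duodenum array and −2.04 on the KO duodenum array, and the open square is the Junb spot that the scanner software flagged, at −4.41. Levels of different genes come from different probes and are not comparable with each other.

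Fos, the founding AP-1 subunit, gave a processed signal of 445 on WT spinal cord, 507 on KO spinal cord, 260 on WT duodenum and 862 on KO duodenum, each the mean of 10 spots. In log2 levels these were −1.02, −0.94, 1.94 and 1.42, so both duodenum arrays lay above both spinal cord arrays. The 10 spots, which are copies on 1 array, ranged from 1.87 to 1.99 on WT duodenum and from 1.25 to 1.49 on KO duodenum and did not overlap. In the spinal cord they did, from −1.14 to −0.92 on WT and from −1.03 to −0.87 on KO. For how many other repeated probes the spots did not overlap was not computed. KO minus WT came to −0.52 ± 0.023 (technical SD) for the duodenum and to 0.09 ± 0.020 for the spinal cord. With normexp background correction the duodenum difference was −0.08.

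Fosb, a second Fos protein that also forms dimers with Jun proteins, differed most. Its signal was 136 on WT spinal cord, 134 on KO spinal cord, 147 on WT duodenum and 78.4 on KO duodenum. The log2 levels of −2.73, −2.86, 1.11 and −2.04 put the WT duodenum array above the other three, which lay within 1 log2 unit of each other. On the KO duodenum array Fosb was lower by 3.15 ± 0.092 on the log2 scale, or 8.89-fold, the 63rd lowest of the 16814 genes above background on both arrays. Although the KO duodenum array was the brighter of the pair, the unscaled Fosb signal was lower on it, which was true of 2.53% of those genes and of no other member. The spinal cord difference of −0.13 ± 0.083 was under 2 technical SDs. Fosb is represented by 1 spot per array, so this difference rests on 1 spot on each of 2 arrays.

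The Jun proteins are the partners of Fos proteins in the AP-1 dimer. Jun had a signal of 2523 on WT spinal cord, 2608 on KO spinal cord, 1938 on WT duodenum and 4182 on KO duodenum, with log2 levels of 1.48, 1.43, 4.83 and 3.70. It was lower by 1.14 ± 0.067 on the KO duodenum array, and the spinal cord arrays differed by −0.05 ± 0.057. Junb, which can oppose Jun at some targets, had a signal of 27.6 on WT spinal cord, 32.6 on WT duodenum and 72.4 on KO duodenum, with log2 levels of −5.04, −1.06 and −2.16. Its duodenum difference was −1.10 ± 0.12. The single Junb spot on KO spinal cord was flagged as non-uniform and left out. Taken as it stands, its signal of 45.8 would give a difference of 0.63 in the spinal cord.

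Atf3, a stress-induced member of the ATF/CREB family that can pair with Jun proteins, ran opposite to the Fos and Jun genes in the duodenum. Its signal was 111 on WT spinal cord, 134 on KO spinal cord, 22.9 on WT duodenum and 187 on KO duodenum, and its log2 levels were −3.03, −2.86, −1.57 and −0.78. The highest of the 4 arrays was thus KO duodenum, by 0.79 ± 0.12 over WT duodenum. That direction did not hold with the normexp method, which starts from the unprocessed spot signals and adds an offset of 50. The difference was then −0.17, and which step of the method moved it was not tested. In the spinal cord the arrays differed by 0.16 ± 0.086, under 2 technical SDs.

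Egr1 is a zinc finger transcription factor induced through SRF. Signals of 1148 on WT spinal cord, 1065 on KO spinal cord, 120 on WT duodenum and 290.4 on KO duodenum gave log2 levels of 0.34, 0.13, 0.82 and −0.15. The KO duodenum array was the lowest and the WT duodenum array the highest, −0.97 ± 0.086 apart. Nr4a1, an orphan nuclear receptor, read 2835 on WT spinal cord, 2400 on KO spinal cord, 499 on WT duodenum and 1560 on KO duodenum. Its log2 levels were 1.65, 1.30, 2.88 and 2.27, and the array labelled KO was the lower one in each tissue, by −0.60 ± 0.067 for the duodenum pair and −0.34 ± 0.057 for the spinal cord pair.

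Ier2, a nuclear protein of the immediate early response, was dim throughout, with a signal of 44.1 on WT spinal cord, 42.4 on KO spinal cord, 58.3 on WT duodenum and 129 on KO duodenum. The log2 levels were −4.36, −4.52, −0.22 and −1.33. The KO duodenum array was lower by 1.10 ± 0.095, and the spinal cord difference of −0.16 ± 0.12 was under 2 technical SDs.

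Dusp1 and Btg2 restrain the response. Dusp1, a phosphatase that inactivates MAP kinases, had a signal of 854 on WT spinal cord, 711 on KO spinal cord, 109 on WT duodenum and 347 on KO duodenum, with log2 levels of −0.08, −0.45, 0.68 and 0.10. KO minus WT was −0.57 ± 0.086 for the duodenum and −0.36 ± 0.062 for the spinal cord. Btg2, an antiproliferative protein that promotes mRNA deadenylation and is also a p53 target, read 445 on WT spinal cord, 367 on KO spinal cord, 329 on WT duodenum and 2644 on KO duodenum. The Btg2 log2 levels were −1.02, −1.40, 2.27 and 3.03, so that KO was the higher array in the duodenum, by 0.76 ± 0.067, and the lower one in the spinal cord, by −0.38 ± 0.062. The 2 genes that share the palindrome in their promoter therefore lay on opposite sides of 0 in the duodenum.

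**Figure D2:**
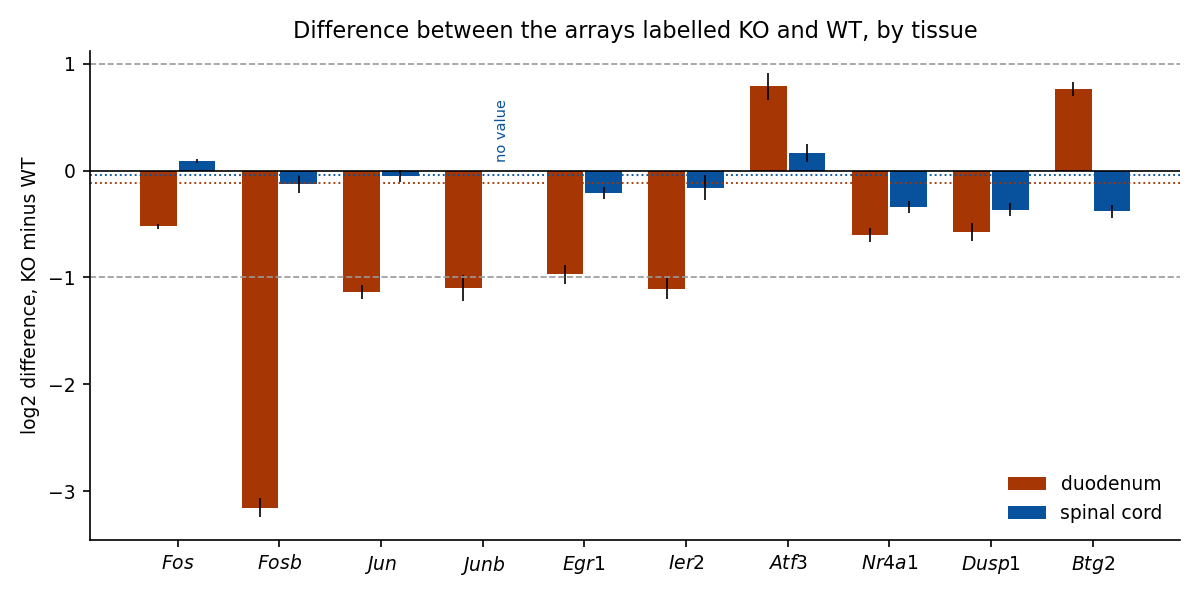
KO minus WT difference of each member on the log2 scale (y axis), in duodenum (brown bars) and spinal cord (blue bars), with the technical SD as error bar; dotted lines are the median gene of each tissue and dashed lines mark 2-fold. In the duodenum 4 bars pass 2-fold, all downward, with Fosb at −3.15 (spiked-in scaling, not shown, turns all but Fosb upward), and in the spinal cord all bars stay between −0.38 and 0.16.

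In the duodenum, 8 of the 10 members were lower on the KO array and 2, Atf3 and Btg2, were higher. Of all genes above background on both arrays, 9378 of 16814 were lower. The split did not hold under every way of processing. With normexp Atf3 was lower too (−0.17), and with scaling on spiked-in control RNA only Fosb (−0.15) was lower. The median member differed by −0.79 and the median gene by −0.11. Past 2-fold, 4 members were lower (Fosb, Jun, Junb and Ier2) and 0 higher, beside 11.9% of 21434 genes lower and 7.2% higher. Jun, Junb and Ier2 lay between −1.14 and −1.10, just past the 2-fold limit of −1, and Egr1 at −0.97 lay just short of it, so Fosb alone stood well beyond the limit. With normexp background correction 2 of the 4 remained past 2-fold, Fosb at −2.25 and Junb at −1.07, beside 14.3% of all genes lower. Jun moved to −0.56, Fos to −0.08 and Nr4a1 to −0.09. With spiked-in scaling the median gene itself moved to 2.89.

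**Figure D3:**
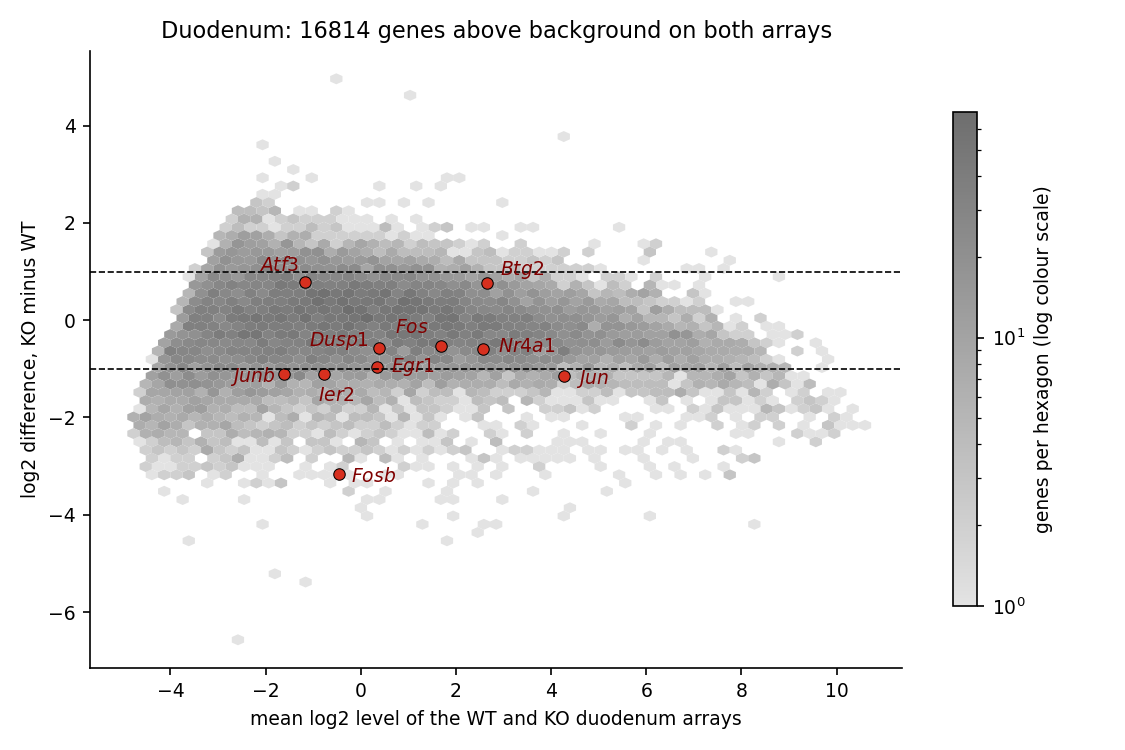
KO minus WT difference (y axis, log2) against the mean log2 level of the 2 duodenum arrays (x axis) for the 16814 genes above background on both, as hexagons shaded by the number of genes on a log colour scale, with members in red; dashed lines mark 2-fold. Fosb lies at the lower edge of the cloud, while the other 9 members, between −1.14 and 0.79, lie within its dense part.

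Relative to the median gene, a measure that scaling of a whole array cannot change, Fosb ranged from −3.12 to −2.07 over 9 ways of processing and Btg2 from 0.82 to 1.41. Egr1 stayed between −0.98 and −0.43, Ier2 between −1.13 and −0.73, Jun between −1.02 and −0.38 and Dusp1 between −0.58 and −0.24, all below the median gene under each of the 9. Junb ranged from −1.09 to −0.89 over the 8 that gave it a value. Fos and Nr4a1 were below the median gene under 7 of the 9 and rose to 0.10 and 0.09 with normexp. Atf3 was above it under all 9, by 0.01 at the least. The 9 were not independent checks. On this measure median centring and spiked-in scaling returned the value of the scaling used in the text, −0.86 for Egr1. Averaging all probes of a gene moved only the median gene. The deposited table repeated quantile normalization of the 4 arrays (Egr1 at −0.91 with each), and both normexp versions put Egr1 at −0.43. Counts out of 9 therefore overstate the number of distinct outcomes.

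**Figure D4:**
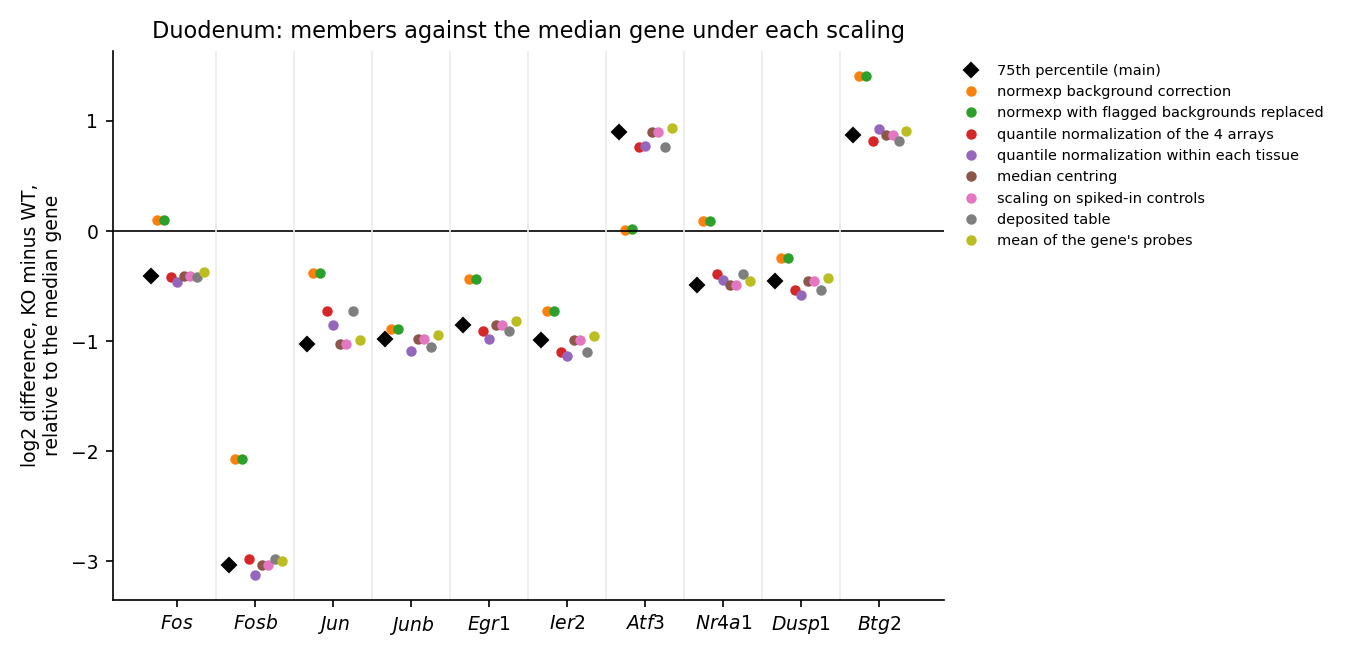
Duodenum difference of each member minus that of the median gene (y axis, log2) under each way of processing (symbols; the black diamond is the scaling used in the text). The order of Fosb at the bottom and Btg2 and Atf3 at the top recurs, except that Atf3 falls to 0.01 with normexp background correction.

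Other genes of the response were read beside the members. Of 48 further immediate early genes, all with a probe, 45 were above background on at least 1 duodenum array. Among these 13 were lower past 2-fold on the KO array and 2 higher, beside the 11.9% and 7.2% of all genes given above. Their median difference was −0.49 over the 42 above background on both arrays, and −0.42 with bounds for the rest. The lowest above background on both were Fosl1, a Fos paralog, at −2.66, the MAP kinase phosphatases Dusp4 (−1.98) and Dusp6 (−1.95), the polo-like kinase Plk3 (−1.94), Ier5l (−1.81) and Jund (−1.54). The 2 higher ones, named because of their values, were Nfkbiz, a nuclear IkB protein, at 1.23 and Nr4a2, a paralog of Nr4a1, at 1.17. Of 30 kinases and factors that act upstream, all above background on at least 1 array, 0 were higher and 2 lower past 2-fold, a smaller share than the 11.9% of all genes. The 2 were ETS partners of SRF, Elk1 at −1.23 and Elk4 at −1.17. The median was −0.41 over the 25 above background on both arrays and −0.20 with bounds for the other 5. Elk1 had the highest level of the list on both duodenum arrays, 893 times the 75th percentile on WT and 381 times on KO. With quantile normalization of the 4 arrays Elk1 was at 0.19. Whether its probe reads other transcripts was not checked. Srf itself was at −0.81 and the kinase Map2k1 at 0.82. Among 20 AP-1 and ATF partners with a probe, 6 were lower and 2 higher past 2-fold, beside the same 11.9% and 7.2%, and the median was −0.17. Of the 6, Fosl1 and Jund, given above, and Maff (−1.09) also belong to the further immediate early genes, and the largest of the others was Cebpb (−1.15). The 2 higher ones were Atf6 (2.10) and Ddit3 (1.09), which act in the response to unfolded proteins.

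Several cell type markers moved with these differences. The 5 blood markers were all lower on the KO duodenum array, with a median of −3.77 and a summed level of 1532 on WT against 88.4 on KO. Smooth muscle markers were lower for 4 of 5, with a summed level of 92.5 against 46.3. Of the endothelial markers Kdr (−2.42) and Tek (−1.17) were lower and Cdh5 (0.61) and Pecam1 (0.20) were not, and the sums of 15.9 against 3.44 were mostly Kdr. Acinar pancreas markers were lower for 5 of 5, with a median of −1.48. Enterocyte markers as a list lay with the median gene, 4 of 7 being below 0 and 3 above, with a median of −0.10 and 1 of 7 past 2-fold. Of 4 heat shock genes that handling of tissue can induce, Hspa1a was at −0.52, Hspb1 at −0.61, Dnajb1 at −0.02 and Hsph1 at 1.58. The part of any of these in the differences of the members was not tested.

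In the spinal cord no member passed 2-fold under the scaling used here. The 9 members with a value ranged from −0.38 (Btg2) to 0.16 (Atf3), 7 of them below 0, with a median of −0.16 beside −0.04 for the median gene. Of all genes above background on both arrays, 14191 of 24166 were below 0. The background was 0.865% of 25216 genes lower and 2.28% higher past 2-fold. Fosb, Jun, Ier2 and Atf3 did not differ between the arrays beyond 2 technical SDs, whereas Egr1 (−0.21), Nr4a1, Dusp1 and Btg2 were lower on the array labelled KO and Fos higher, each by over 2 technical SDs. The share of all genes past that limit was not computed, so this singles out no member. Fos, whose SD is that of a mean of 10 spots, ranked 6401st from the highest of 24166 genes. Only with normexp did members pass 2-fold, Fosb (−1.12), Ier2 (−1.75) and Atf3 (−1.22) being lower, where the median gene itself was at −0.45 and 38.3% of all genes were lower past 2-fold. Among the 48 further immediate early genes 2 were higher past 2-fold and 0 lower, namely Egr2 at 2.53, a paralog of Egr1 that also drives myelination by Schwann cells, and Sgk1, a glucocorticoid-induced kinase, at 1.99. The next in size were Csrnp1 (−0.52), Maff (−0.49), Klf10 (0.45) and Sik1 (−0.44), and the median was −0.08. Neither the upstream list (median −0.07) nor the AP-1 and ATF partners (median −0.06) had a gene past 2-fold.

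The array labelled KO spinal cord also carried more signal of marker genes of other tissues. All 5 skeletal muscle markers were higher past 2-fold, with a median of 4.30 and a summed level of 38.8 against 2.23 on WT. Of 5 fibroblast markers 3 were higher past 2-fold, with sums of 14.8 against 6.68, and the 5 blood markers were higher with a median of 1.16 and sums of 350 against 227. Of 4 lymphocyte and 4 neutrophil markers, 2 each were higher past 2-fold. Neuron markers, with a median of −0.08, and astrocyte markers, with a median of −0.18, had none past 2-fold. Their part in the members' small differences was not tested.

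Relative to the 75th percentile of each array, nearly all members were higher in the duodenum than in the spinal cord, a direction that spiked-in scaling reversed for all 10 on the WT arrays. In WT mice 8 of the 10 were higher past 2-fold and 0 lower, beside 30.2% of 25219 genes higher and 23.1% lower. The 8 were Ier2 (4.14), Junb (3.98), Fosb (3.84), Jun (3.35), Btg2 (3.30), Fos (2.96), Atf3 (1.45) and Nr4a1 (1.23), whereas Dusp1 (0.76) and Egr1 (0.48) fell short. The median member differed by 3.13 and the median gene by 0.63. On the arrays labelled KO, 5 of the 9 members with a value were higher past 2-fold and 0 lower, beside 30.3% of 25726 genes higher and 25.4% lower. Btg2 (4.44), Ier2 (3.19), Fos (2.35), Jun (2.27) and Atf3 (2.08) were the 5, and Fosb had come down to 0.82. Nr4a1 was at 0.97, Dusp1 at 0.55 and Egr1 at −0.29, and the median member was at 2.08 beside 0.30 for the median gene. These comparisons share arrays with those between the genotypes, so the WT duodenum value of Fosb enters both.

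The size and sign of the tissue differences followed the scaling, since the arrays of the 2 tissues differed in overall brightness. With scaling on spiked-in RNA the median gene moved to −4.41 between the WT arrays and to −1.57 between the arrays labelled KO, which is why differences relative to the median gene are given as well. Relative to the median gene, Ier2, Junb, Fosb, Jun, Btg2, Fos and Atf3 were higher in the WT duodenum under each way of processing that gave a value. Nr4a1 and Dusp1 were so under 8 of 9, and Egr1 under 2 of 9.

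**Figure D5:**
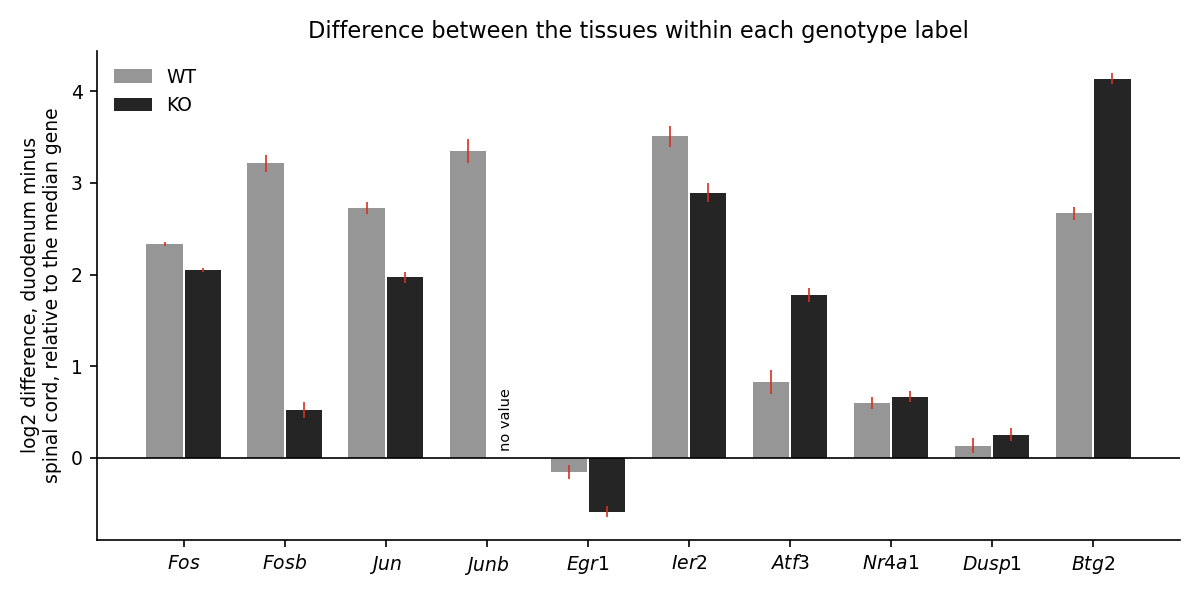
Duodenum minus spinal cord difference of each member minus that of the median gene (y axis, log2), on the WT arrays (grey) and on the arrays labelled KO (black), with the technical SD as red error bars; Junb has no value for KO. Fosb stands at 3.21 on the WT arrays and 0.52 on those labelled KO, and Btg2 at 2.67 and 4.14. Egr1 is below 0 on both, although above 0 on the WT arrays with quantile normalization of the 4 arrays, which the deposited table repeats.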

How the data were processed

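The authors deposited scanner output of 4 one-colour Agilent arrays on 1 slide (Agilent Feature Extraction 11.5.1.1, per the labels), where the processed signal is the intensity of a spot corrected for background and for spatial trend, together with a series table in log2. Set against the scanner files, the deposited table was log2 of the processed signal after quantile normalization of the 4 arrays (r of at least 0.9997 on each). It served as an alternative, and its scale was settled by this comparison.

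Spots of controls or with an outlier flag were dropped, repeats of a probe averaged, and the 75th percentile of each array over 39429 probes subtracted from log2 signals (Python 3.11.15, numpy 2.4.6, pandas 2.3.3). Each gene was represented by its brightest probe, and 25868 of 26391 NM accessions matched a RefSeq symbol. No spot was saturated. Genes above background on at least 1 of 2 arrays were counted past 2-fold, with a bound where only 1 array measured them. Technical SDs came from the 50 probes nearest in brightness among 399 with 10 spots. The number of arrays limits the precision, and no test, p-value or interval was computed.

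All members are named, and of each other list up to 6 genes with the largest difference per tissue among genes above background on both arrays, plus markers that check a tissue. Nfkbiz and Nr4a2 were added after their values were seen. The members and lists were chosen with earlier results of these data known. Alternatives were normexp (limma 3.58.1 in R 4.3.3, offset 50), also with flagged local backgrounds replaced, quantile normalization over 4 arrays or within a tissue, median centring, 8 spiked-in controls, the deposited table, all probes of a gene, 1.5-fold, and other filters. The code was tested on simulated data. Perfusion with PBS is described in the study's methods for its organ collection and is not stated for these samples.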

Additional observations from a re-analysis of the deposited data

Results flagged for a closer look

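Fos and Btg2 differed in opposite directions in the 2 tissues, each difference being over 2 technical SDs. The share of all genes that do so was not computed. Fos was lower on the KO array in the duodenum (−0.52) and higher in the spinal cord (0.09), so that the duodenum difference minus the spinal cord difference was −0.61 on the log2 scale. For Btg2 the KO array was the higher one of the duodenum pair (0.76) and the lower one of the spinal cord pair (−0.38), with 1.14 between them. The direction of Fos turned with the scaling, to 2.48 for the duodenum pair and −0.08 for the spinal cord pair with spiked-in controls. With normexp Fos was at −0.08 for the duodenum pair and −0.24 for the spinal cord pair, and thus no longer opposite. With flagged backgrounds replaced its spinal cord value was 0.06. Btg2 kept both directions under all 9 ways of processing, several of which repeat each other. Each value rests on 1 array per genotype and tissue, and the difference between the tissues was not tested.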

How the results depend on the processing

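No paired analysis was possible because there was a single array of each kind, and for the same reason no array could be left out. Technical SDs say nothing on spread between mice, and the dim WT duodenum array limits Atf3, Junb and Ier2 most. The cause of the shifts below was not tested. In the duodenum, the median KO minus WT difference of the members, −0.79 in the text, was −0.49 with normexp, with or without replaced backgrounds, −0.53 with quantile normalization of the 4 arrays, −0.62 in the deposited table and 2.22 with spiked-in scaling, under which the median gene moved from −0.11 to 2.89 and 96.2% of genes were higher past 2-fold. Members lower past 2-fold numbered 2 with either normexp, beside 14.3% of all genes, in place of 4. They also numbered 2 with quantile normalization of the 4 arrays, where Junb had no value, beside 8.79% of all genes. With spiked-in scaling they numbered 0, beside 0.084%. Members higher past 2-fold numbered 1 with either normexp (Btg2), beside 3.9% of all genes, in place of 0. Members higher numbered 9 with spiked-in scaling, beside 96.2%, and 2 at 1.5-fold, beside 17.0%. Jun, Junb and Ier2 turned to 1.86, 1.90 and 1.90 with spiked-in scaling. In the spinal cord, the median of −0.16 was −0.41 with normexp, where the median gene was at −0.45 and 3 members were lower past 2-fold in place of 0, beside 38.3% of genes, and −0.33 with spiked-in scaling.

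Between the WT tissues, the median of 3.13 was 1.27 with normexp, 2.41 with replaced backgrounds, 2.57 with quantile normalization of the 4 arrays, 0.25 within each tissue, 3.35 with median centring, 2.70 in the deposited table and −1.91 with spiked-in scaling. Members higher past 2-fold numbered 2 and lower 4 with quantile normalization within each tissue, beside 8.64% and 66.4% of all genes. With spiked-in scaling they numbered 0 and 9, beside 3.41% and 92.3% of all genes. Spiked-in scaling turned Fos to −2.08, Fosb to −1.20, Jun to −1.68, Junb to −1.06, Ier2 to −0.90, Atf3 to −3.58, Nr4a1 to −3.81 and Btg2 to −1.74, and quantile normalization within each tissue, with the median gene at −2.08, turned Atf3 to −1.23, Nr4a1 to −1.52, Egr1 to −2.20 and Dusp1 to −1.91. Egr1 and Dusp1 were at −4.56 and −4.28 with spiked-in scaling. Quantile normalization within each tissue gives the 2 tissues no common scale, so tissue differences under it carry the gap in array brightness. Relative to the median gene it gave 0.86 for Atf3, 0.56 for Nr4a1, −0.11 for Egr1 and 0.18 for Dusp1. On the arrays labelled KO, the median of 2.08 was 1.70 with either normexp, 1.90 with quantile normalization of the 4 arrays and in the deposited table, −0.58 within each tissue, 2.35 with median centring and 0.21 with spiked-in scaling. Members higher numbered 1 and lower 4 within each tissue, beside 6.63% and 77.7% of all genes. With spiked-in scaling they numbered 2 and 3, beside 9.53% and 64.9% of all genes. Within each tissue, Fos turned to −0.27, Jun to −0.26, Atf3 to −0.58, Fosb to −1.81, Nr4a1 to −1.62 and Dusp1 to −2.10. With spiked-in scaling, Fosb turned to −1.05, Nr4a1 to −0.90 and Dusp1 to −1.31.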
